A study of Mus musculus with 16 samples.

Results

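The circular RNA (circRNA) rows of middle abundance in the mouse prefrontal cortex were those whose name begins with mmu_circ_ and whose mean over 16 libraries was at least 40 and under 1000 normalised counts. This rule found 458 rows, of which 448 were distinct after rows with identical values were counted once, among 14540 circRNA rows and 18488 non-coding RNA features. The rows were thus chosen by their measured mean over both genotypes, so their abundance is a description and not a result. The 2 rows just below the lower limit, circ_0007611 and circ_0000334, both had a mean of 39.8, and the 2 just above it, circ_0011476 and circ_0013602, had means of 40.02 and 40.05. At the upper limit, circ_0000101 and circ_0008308 lay inside at 899.5 and 900.5, and circ_0006200 and circ_0000078 lay outside at 1014 and 1112.

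A circRNA is formed when the splicing machinery joins a downstream splice site to an upstream one, which closes one or more exons into a loop without free ends. Such loops resist exonucleases and are plentiful in brain, where many come from genes that act at synapses. A small RNA library reads short fragments, so a read listed under a circRNA need not cross the back-splice junction that sets the loop apart from a linear RNA. The same short read can also be listed under a miRNA or a snoRNA that lies in the same gene.

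The libraries came from 8 PS19 mice and 8 wild-type (WT) littermates at about 9.6 months of age, with equal sexes in each genotype. PS19 mice were heterozygous (PS19+/-) and carry mutant human tau under the mouse prion promoter, on a (C57BL/6xC3H)F1 background. Each library held the small RNA of frozen prefrontal cortex from 1 animal. The labels also give a library code whose first letter was G for all 8 PS19 libraries and for WT 2 and WT 4, F for WT 1, 5, 6 and 7, and A for WT 3 and 8, and what the letter stands for is not stated. Libraries are named below by genotype and replicate number.

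Recovered reads summed over all listed features came to between 13187096 and 23058568 per library, and 43695 to 108380 of these lay in the 448 rows. A read listed under several features counts in each, so these sums are not sequencing depths. Of the marker miRNAs, those of neurons summed to between 294008 and 1024823 normalised counts in PS19 and between 341011 and 951040 in WT. Those of microglia and myeloid cells summed to between 568 and 3003 in PS19 and between 432 and 1534 in WT, with the defining miR-223-3p under 9 in every library. In that list miR-155-5p lay between 45.5 and 197 in PS19 and between 24.3 and 73.0 in WT, and miR-146a-5p between 519 and 2883 and between 400 and 1452. The oligodendrocyte list summed to between 18523 and 52341 in PS19 and 13367 and 46513 in WT, and the vessel list, which holds miR-143-3p, to between 15206 and 61634 and between 17840 and 60601. Most of the oligodendrocyte sum was miR-219a-2-3p, with miR-219a-5p at most 10.7. Those of red blood cells summed to between 731 and 1518 in PS19 and 652 and 1411 in WT, with miR-144-3p under 3 in every library. Most of this sum was miR-486a-5p, at 717 to 1499 in PS19 and 627 to 1397 in WT. miR-451a lay between 5.69 and 40.1 in PS19 and between 1.90 and 27.1 in WT. The part of these cells in the results was not tested, and in bulk tissue fewer cells of a type and less RNA per cell cannot be told apart.

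The 448 rows were not 448 separate measurements. When rows that rose and fell together were joined (a Pearson r of 0.99 or more over the 16 libraries, taken on log2 values, and means within 2-fold), 320 families remained, of which 237 held 1 row. The largest family, led by circ_0000205, held 9 rows with means between 64.9 and 69.1. The next families were led by circ_0003310 with 7 rows and circ_0008327 with 6. Identical values were found in 9 sets that covered 19 of the listed rows.

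A further overlap was with other classes of small RNA. Of the 448 rows, 20 rows in 15 families followed a miRNA, snoRNA or tRNA across the 16 libraries by the same rule, 6 of them a miRNA, 12 a snoRNA and 2 a tRNA. This is a description, because the points share libraries and depth, and it rests on the limit of r, since 46 rows met r of at least 0.95. The followed miRNAs were miR-488-3p, miR-107-3p, miR-10b-5p and miR-495-3p. Their mature sequences are shown because rows with a circRNA name took nearly the same values as these RNAs in each library, with the seed, bases 2 to 8, in capitals (RefSeq, GRCm38.p6).

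miR-488-3p: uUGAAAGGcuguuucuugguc
miR-107-3p: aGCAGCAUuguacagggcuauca
miR-10b-5p: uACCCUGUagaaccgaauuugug
miR-495-3p: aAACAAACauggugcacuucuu

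No 2 of these 4 shared a seed. miR-488-3p lies in an intron of Astn1 at chr1:158505689-158505709 on the plus strand, and miR-107-3p, a member of the miR-103 and miR-107 family, lies in an intron of the pantothenate kinase gene Pank1 at chr19:34820700-34820722 on the minus strand. miR-10b-5p lies in introns annotated to Hoxd3 and Hoxd4 at chr2:74726074-74726096 on the plus strand. miR-495-3p, at chr12:109718795-109718816 on the plus strand, had no annotated host gene and belongs to a large imprinted miRNA cluster.

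Of the followed snoRNAs, 5 held the letters of the box C and box D elements that define guides of ribose methylation. The 4 shorter ones are shown, and the fifth was the longer Scarna10. Capitals mark TGATGA within the first 25 bases (box C) and CTGA within the last 15 (box D), searched on the transcript's own strand, and 301 of 824 snoRNA features with a transcript (36.5%) held both. The transcripts are those of GENCODE M21 (GRCm38).

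Gm24310: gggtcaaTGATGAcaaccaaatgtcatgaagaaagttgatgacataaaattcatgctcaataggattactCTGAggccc
Snord100: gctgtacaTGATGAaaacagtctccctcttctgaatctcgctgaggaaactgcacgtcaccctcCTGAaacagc
Snord92: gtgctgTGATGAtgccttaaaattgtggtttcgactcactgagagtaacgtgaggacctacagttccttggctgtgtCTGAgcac
Snord15a: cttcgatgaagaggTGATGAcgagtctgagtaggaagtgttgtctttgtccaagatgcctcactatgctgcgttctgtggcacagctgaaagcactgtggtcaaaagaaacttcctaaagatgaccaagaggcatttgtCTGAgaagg

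Gm24310 is a predicted snoRNA in an intron of Snhg14, a long non-coding RNA whose introns carry tandem snoRNA copies, at chr7:59518411-59518489 on the minus strand. Snord100 lies in the ribosomal protein gene Rps12 at chr10:23785750-23785823 on the minus strand, where it overlaps an exon of some transcripts. Snord92 lies in an intron of Wdr43 at chr17:71631281-71631365 on the plus strand. Snord15a lies in an intron of the ribosomal protein gene Rps3 at chr7:99482785-99482932 on the minus strand. The other followed snoRNAs were Snord98 in Ccar1, Snora30, a guide of pseudouridylation, in Srcap, Gm24837 in Ubap2, Gm25053 in Tmem245, Gm25128 in Ddx39b, all in introns, and the Cajal body RNA Scarna10, with both boxes, in an exon of Ncapd2. The followed tRNA was tRNA-Ala-TGC-7-1.

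The values of the followers lay close to those of the small RNA they followed. circ_0008308 had a mean of 900.5 normalised counts and r of 0.9997 with miR-488-3p, whose mean was 824. circ_0003735 had a mean of 536 beside 499 for miR-495-3p. circ_0002335 and Snord98 had means of 758 and 716, circ_0002125 and Snord100 663 and 652, and circ_0011599 and Gm24837 525 and 521. The tRNA followers circ_0003413 and circ_0003415 had means of 282 and 276 beside 277 for tRNA-Ala-TGC-7-1. Whether the reads of such a row came from a loop or from the short RNA cannot be told apart here.

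**Figure D1:**
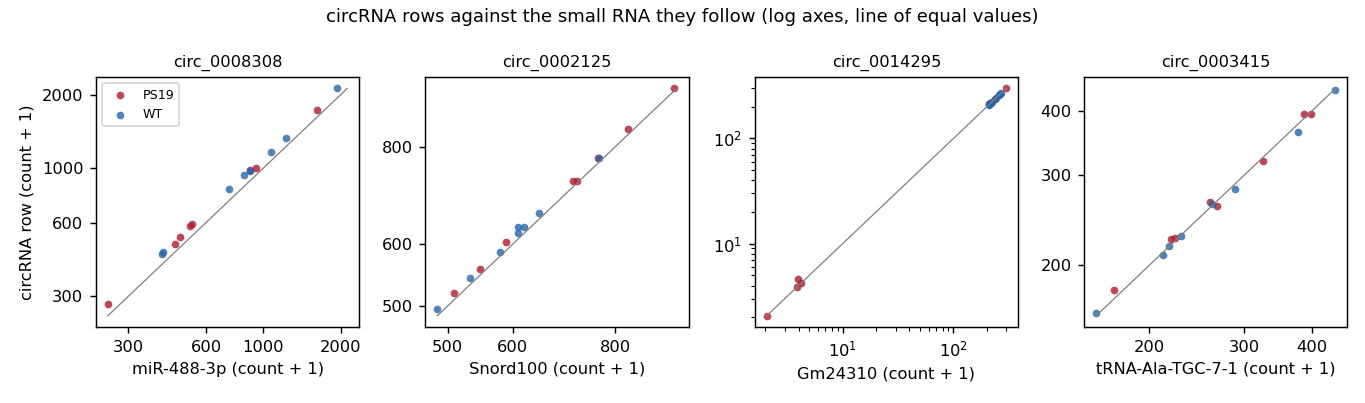
Normalised count plus 1 of 4 circRNA rows (vertical, log axis) against that of the small RNA they follow (horizontal, log axis) in 16 libraries, with PS19 in red, WT in blue and a line of equal values. The points run along the line of equal values or, for miR-488-3p, slightly above it, and for circ_0014295 and Gm24310 4 PS19 libraries lie apart at the low end.

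In PS19 mice compared to WT, none of the 6 followers of miRNAs passed the test. circ_0008308 ranged from 277 through a median of 583 to 1732 normalised counts in PS19 and from 444 through 955 to 2115 in WT. The ranges overlapped widely, with the lowest library in PS19 and the highest in WT. Its log2 difference on the log2(value + 1) scale, as all differences given below, was -0.45 ± 0.35 (SE, limma, unadjusted p = 0.210, exact permutation p = 0.268). circ_0003735, beside miR-495-3p, differed by -0.46 (p = 0.232), and circ_0010180, beside miR-10b-5p, by -0.33 (p = 0.383).

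The snoRNA followers held the single follower of 20 with an unadjusted p under 0.05 (5.0%), which is near the 4.0% of all features tested. This was circ_0014295, which follows the Snhg14 snoRNA Gm24310 (r of 0.9998). It stood at 297, 234, 214 and 210 normalised counts in PS19 1, 3, 5 and 7 and at 3.25, 1.07, 2.85 and 3.66 in PS19 2, 4, 6 and 8, while the WT libraries lay between 209 and 269 with a median of 232. Thus 4 PS19 libraries were at the WT level, 4 were near 0, and no WT library was low. The log2 difference was -3.03 ± 0.95 (SE, limma, unadjusted p = 0.00430, exact permutation p = 0.0413, two-sided over 12870 assignments), and 6 of 8 PS19 libraries lay below the WT median. On the recovered reads the difference was -0.96 with edgeR and -0.97 with DESeq2. The unadjusted p was then 0.209 and 0.266, so the call was lost. The snoRNAs most like circ_0014295 after Gm24310 were Gm25087 and Gm26467 of the same chromosome (r of 0.991), each with a mean of 1272, and reads cannot be told apart among near-identical snoRNA copies.

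Among the other snoRNA followers, circ_0001604 stood beside Snord15a. Its values ran from 43.3 through a median of 69.6 to 91.1 normalised counts in PS19 and from 36.1 through 47.6 to 66.6 in WT. The groups overlapped, although 7 of 8 PS19 libraries lay above the WT median. PS19 differed from WT by 0.43 ± 0.21 (SE, limma, unadjusted p = 0.0533, exact permutation p = 0.0264), which did not pass the limma test. It passed in 5 of the 16 fits that left out 1 library and in 7 of 11 other settings. Scaling to the library total gave an unadjusted p of 0.0416, beside 0.0395 with edgeR and 0.0238 with DESeq2. The follower circ_0002125, beside Snord100, was 711 ± 147 in PS19 and 616 ± 82.9 in WT (SD, n = 8 each), a log2 difference of 0.19 (limma, p = 0.303, exact permutation p = 0.153).

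Across all 448 rows, PS19 and WT did not differ past the adjusted threshold in any row. The smallest adjusted p of a row was 0.9998 (limma, Benjamini-Hochberg over 6024 features), and 0% of the 6024 features passed. At an unadjusted p under 0.05, which was the call rule of the study, 37 of the 448 rows (8.26%) passed, beside 4.0% of all features tested. Of these 37 rows, 29 fell in PS19, beside 2.14% of all features, and 8 rose, beside 1.86%. Among the 37 called rows, 4 of the 8 higher had a WT mean under 40 and 6 of the 29 lower a PS19 mean under 40. Such a row is a member only through the genotype in which it is high, so it had to differ, and its difference is given as a description with no p. With both genotype means in the range, 4 rows were higher and 23 lower. By families, 23 of 320 passed, with 19 lower and 4 higher. No row had groups that did not overlap, beside 0.0996% of all features.

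The balance of the rows lay slightly below 0. On the log2 scale PS19 minus WT was below 0 for 283 rows and above 0 for 165, with a median of -0.10 beside -0.02 over all features tested. The split of the calls depended on the scaling: 78.4% of the 37 calls were lower in PS19. With libraries scaled to their total it was 63.3% of 30 calls (6.70% of the rows, beside 3.04% of all features). With circRNA rows scaled to the circRNA sum it was 48.1% of 27 calls (6.03%, beside 2.56% of all features). The summed value of the 448 rows was 52519 ± 8368 normalised counts in PS19 and 62015 ± 17091 in WT (SD, n = 8 each), of which WT 8 alone stood at 101127 and the other 15 libraries between 39731 and 65918. In WT 8 the 4 near-identical rows of the circ_0013327 family stood at 8747 to 8756 each, and circ_0012320 at 7159. The sum of WT 8 is thus not a height of the rows in general. The log2 ratio of the means was -0.24, and -0.10 without WT 8.

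All calls lay at means under 300. They were 21 of 295 rows with a mean under 100 (7.12%), beside 4.0% of all features. With a mean of 100 to under 300 they were 16 of 122 (13.1%). With a mean of at least 300 they were 0 of 31, and 31 rows are too few beside 4.0% to read this as a result. In the 31 rows of highest mean the smallest unadjusted p was 0.0672. As both genotype means were in the range for 396 rows, 23 rows were members through the PS19 mean alone and 29 through the WT mean alone, and 27 of the 396 were called, 23 lower and 4 higher in PS19.

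**Figure D2:**
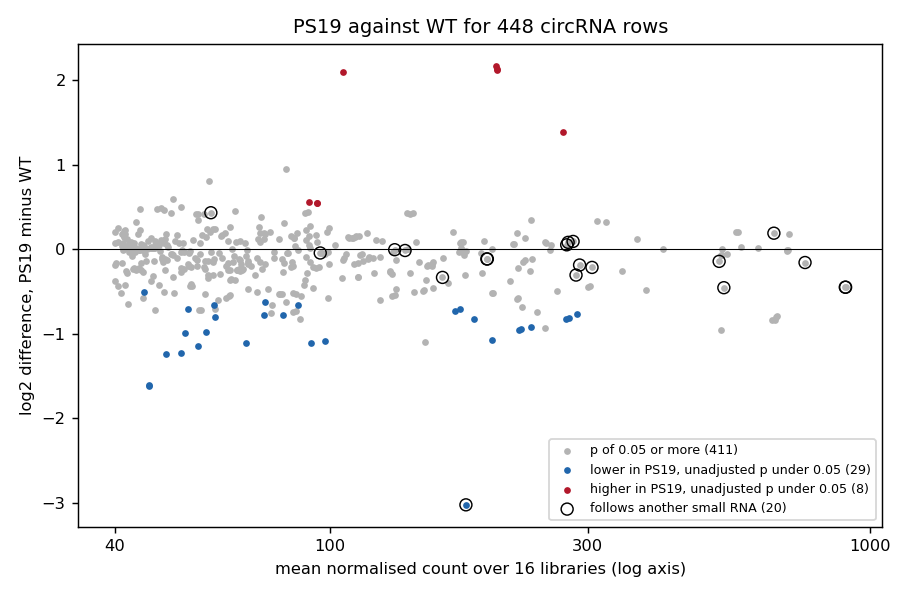
Log2 difference of PS19 minus WT (vertical) against the mean normalised count (horizontal, log axis) for 448 circRNA rows, with 29 lower and 8 higher rows coloured and 20 followers of other small RNAs circled. The called rows lie at means under 300, and circ_0014295, at a difference of -3.03, is the lowest point.

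The lower rows with the smallest p after circ_0014295 were circ_0009998 and circ_0009997, which moved together (r of 0.989). circ_0009998 ran from 21.7 through a median of 29.6 to 55.3 normalised counts in PS19 and from 29.2 through 71.0 to 149.7 in WT. All 8 PS19 libraries lay below the WT median, whereas WT 1, 2 and 4 at 29.5, 38.0 and 29.2 lay inside the PS19 range. Its means were 33.1 in PS19 and 75.0 in WT, so it is a member through WT alone, and its log2 difference of -0.99 ± 0.33 (SE, limma) is a description. circ_0009997 was 41.2 ± 9.28 in PS19 and 81.6 ± 43.0 in WT (SD, n = 8 each), a log2 difference of -0.80 (limma, p = 0.0132, exact permutation p = 0.0241), with all 8 PS19 libraries below the WT median. When the first letter of the library code entered the fit, the differences of circ_0009998 and circ_0009997 were -0.07 and -0.06.

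circ_0005019 belonged to a family of 2 rows and was most like circ_0004037 (r of 0.958), a further lower row. Its values ran from 20.8 through 50.2 to 182.8 normalised counts in PS19 and from 42.3 through 135.5 to 271 in WT. All PS19 libraries but PS19 8 lay at or below 68.2, and WT 1, 2 and 3 lay in the same low range. PS19 minus WT came to -1.09 ± 0.41 (SE, limma, unadjusted p = 0.0142, exact permutation p = 0.0401).

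circ_0010369 ran from 39.9 through 65.3 to 109 normalised counts in PS19 and from 64.1 through 106 to 174.7 in WT, with 7 of 8 PS19 libraries below the WT median. This gave a log2 difference of -0.66 ± 0.25 (SE, limma, unadjusted p = 0.0160, exact permutation p = 0.0168). The ranges of the genotypes overlapped in part, and scaling each library to its total moved the unadjusted p over the threshold, to 0.0521.

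circ_0009950 stood at 56.9 ± 21.1 in PS19 and 107 ± 56.7 in WT (SD, n = 8 each), with a log2 difference of -0.78 (limma, unadjusted p = 0.0231, exact permutation p = 0.0407). Leaving out WT 5 gave -0.62 and an unadjusted limma p of 0.0594, leaving out PS19 6 gave 0.0521, and scaling each library to its total gave 0.0574. Its difference was -0.08 when the first letter of the library code (G, F or A) entered the fit. Its 7 lowest PS19 libraries lay below the WT median and PS19 8 just above it.

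circ_0008687 led a family of 4 rows with means from 199.5 to 236, all 4 of which were called. It ran from 66.4 through 143 to 429.4 normalised counts in PS19 and from 141 through 257.9 to 577.8 in WT. The highest library of each genotype was replicate 1, and 6 of 8 PS19 libraries lay below the WT median. The log2 difference was -0.92 ± 0.36 (SE, limma, unadjusted p = 0.0182, exact permutation p = 0.0409).

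circ_0004988 and circ_0004987 formed a family whose PS19 libraries were split. circ_0004988 stood at 1.45 to 12.8 normalised counts in PS19 1 to 5 and at 109, 77.3 and 95.1 in PS19 6, 7 and 8, while the WT libraries lay between 25.7 and 75.7 with a median of 52.2. Thus 5 PS19 libraries were below every WT library and 3 were above every WT library. Both rows had a PS19 mean under 40 and are members through WT alone. The log2 difference of circ_0004988, -1.61 ± 0.67 (SE, limma), is the mean of these opposed values and a description, and on the recovered reads it was -0.38 with edgeR. The neighbouring numbers circ_0004985 and circ_0004986 had differences of -1.24 and -1.22.

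**Figure D3:**
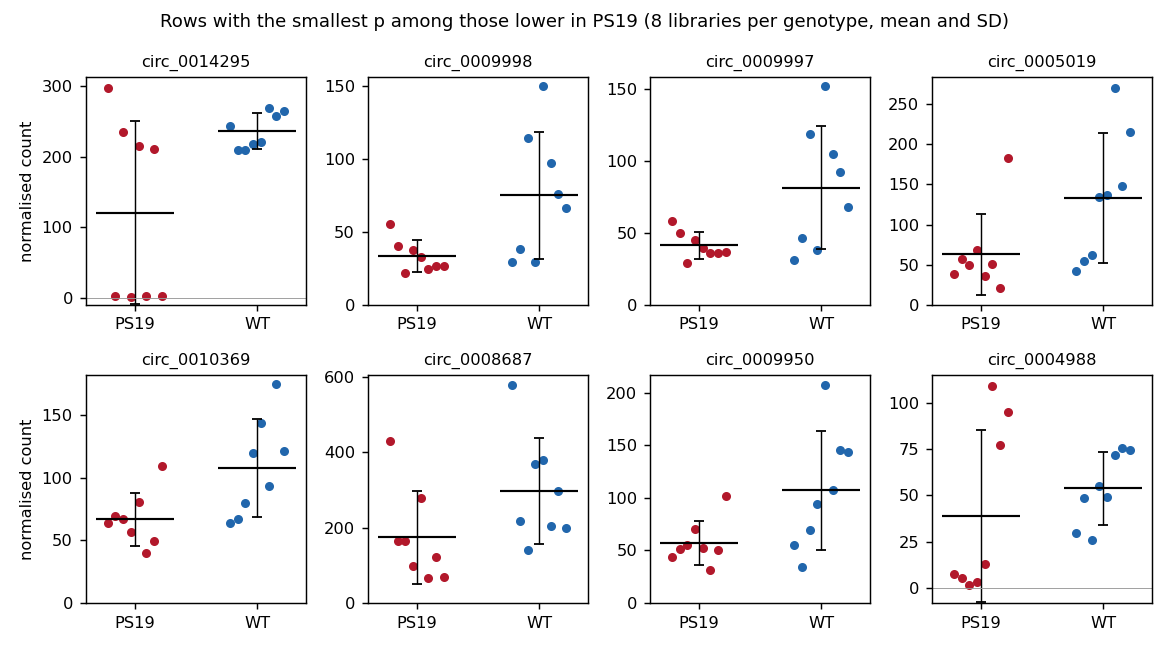
Normalised counts (vertical) of the 8 rows with the smallest p among those lower in PS19, 8 libraries per genotype, with the mean as a bar and the SD as whiskers. circ_0014295 and circ_0004988 show PS19 libraries in 2 separate levels, whereas circ_0009998 and circ_0009997 show PS19 libraries close together below the WT median.

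Over the 29 lower rows, 6 of which are members through WT alone, 19 had at least 7 of 8 PS19 libraries below the WT median and 2 had all 8. Single libraries stood out within them. The median deviation of these rows from their own median over the 16 libraries was lowest in PS19 6 at -1.23 (log2). It was highest in WT 5 at 0.96 and WT 7 at 0.93, while PS19 8 lay at 0.84, near the high WT libraries. PS19 6 was the lowest library of 14 of the 29 rows but the highest of 4, and WT 5 was the highest of 9. Without WT 5 or without WT 8, the number of called rows fell from 37 to 22 each (4.91%), beside 3.30% and 2.84% of all features. Without WT 2 it was 57 (12.7%), beside 4.98% of all features.

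circ_0007688, which the study names, was measured at 34.4 through a median of 42.2 to 107 normalised counts in PS19 and 32.0 through 102.8 to 183.9 in WT. WT 6 and WT 7, at 32.0 and 36.1, lay at the bottom of the PS19 range, and PS19 3 lay above the WT median. On the log2 scale PS19 minus WT was -0.78 ± 0.33 (SE, limma, unadjusted p = 0.0302, exact permutation p = 0.0550). It passed in 8 of the 16 limma fits that left out 1 library, and its weakest value was -0.62 without WT 3. It passed in all 11 settings that kept every library, with a largest unadjusted p of 0.0354. The features most like it across the 16 libraries were circ_0010050 (r of 0.969) and the vascular smooth muscle miRNA miR-143-3p (r of 0.908), which share libraries and depth with it.

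Of the 8 higher rows, 5 rows in 3 families had their highest 3 libraries in PS19 3, 4 and 5. circ_0015813 stood at 1765, 391 and 838 normalised counts in these libraries, at 13.1 to 24.9 in the other 5 PS19 libraries and at 10.1 to 38.2 in WT. circ_0011843 stood at 440, 285 and 747, beside 15.2 to 26.2 in the other PS19 libraries and 8.91 to 24.3 in WT, and circ_0007298 at 2024, 472 and 915, beside 28.5 to 143 and 47.0 to 133. The 5 rows were circ_0011843, circ_0007298, circ_0015813, circ_0001800 and circ_0001801.

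The log2 differences of these 3 rows were 2.12 ± 0.86, 2.10 ± 0.70 and 1.38 ± 0.66 (SE, limma), and they describe 3 PS19 mice and not a shift of all 8. On the recovered reads they were larger, at 4.32, 3.72 and 2.83 with edgeR and 4.24, 3.69 and 2.76 with DESeq2. All of the 5 rows but circ_0007298 had a WT mean under 40 and are members through PS19 alone, where they are high, so their differences are descriptions. circ_0015813 had means of 386.6 in PS19 and 20.4 in WT, and circ_0011843 of 196.5 and 15.3. circ_0007298, with means of 470.5 and 69.3, was in the range in both genotypes. Its unadjusted limma p was 0.0492 and its exact permutation p 0.118, and it passed in 5 of the 16 fits that left out 1 library. With DESeq2 on the recovered reads these 5 rows, and no other row, had an adjusted p under 0.05, beside 0.249% of all features, a count that the choice of members sets for 4 of them. Leaving out PS19 3 brought the difference of circ_0007298 to 0.88, which did not pass in limma, and that of circ_0015813 to 1.49.

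The other 3 higher rows were the family of circ_0010871. It ran from 63.1 through 111 to 180 normalised counts in PS19 and from 44.02 through 76.4 to 92.3 in WT. PS19 1, 3, 4 and 5 lay above every WT library and the other 4 PS19 libraries lay inside the WT range. The difference between the genotypes was 0.55 ± 0.25 (SE, limma, unadjusted p = 0.0409, exact permutation p = 0.0440). It passed in 8 of the 16 limma fits that left out 1 library, with the largest p without WT 6. Outside its family it was most like circ_0016396 (r of 0.885), miR-486b-3p (r of 0.870), of a miRNA family abundant in red blood cells, and circ_0007298 (r of 0.862), over the same 16 libraries, which share depth.

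The remaining rows named among those higher in PS19 did not pass the limma test. circ_0004465 was 262 ± 47.4 normalised counts in PS19 and 209 ± 53.2 in WT (SD, n = 8 each), with all 8 PS19 libraries above the WT median and a log2 difference of 0.35 (limma, p = 0.0952, exact permutation p = 0.0452). circ_0007944 was 73.7 ± 35.9 and 45.7 ± 34.2, a difference of 0.81 (limma, p = 0.0653). circ_0012613 was 63.4 ± 25.5 and 42.8 ± 13.1, a difference of 0.50 (limma, p = 0.0817). The last 2 of these calls depended on the setting. circ_0012613 passed when libraries were scaled to their total (unadjusted p of 0.0343) or to the circRNA sum (0.0288), with edgeR (0.0443) and with DESeq2 (0.0421). It also passed with the replicate number as a term (0.0306) and without PS19 6 (0.0332), PS19 7 (0.0307) or WT 1 (0.0452). circ_0007944 passed with no filter on low values (0.0383), with array weights (0.0101) and with the replicate number as a term (0.0136). Without PS19 1 (0.0127), WT 2 (0.0294) or WT 7 (0.0162), circ_0007944 passed too. circ_0004465 passed in no setting, with a smallest unadjusted p of 0.0577, without WT 5. In each of these 3 rows the ranges of the genotypes overlapped.

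Several rows were decided by libraries that did not follow genotype. circ_0012320 ranged from 10.2 to 323 normalised counts in PS19 and from 12.8 to 7159 in WT, the highest being WT 8, with WT 5 next at 528. circ_0013327, which led a family of 4, moved with it (r of 0.975) and reached 8756 in WT 8 and 692 in WT 5. circ_0004863 stood at 1283 in WT 7 and between 2.95 and 13.9 in the other 15 libraries. circ_0004863 was thus a member through WT 7 alone, and none of these rows was called.

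circ_0007183 separated the libraries by replicate number rather than by genotype. It lay between 0 and 5.79 normalised counts in 9 libraries, PS19 1 to 5 and WT 1 to 4, and between 155 and 845 in 7, PS19 6 to 8 and WT 5 to 8. It was the only row with a library at 0 counts. The log2 difference between genotypes was -1.10 ± 1.41 (SE, limma, exact permutation p = 0.492), smaller than its error. The labels do not say what the numbers share.

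**Figure D4:**
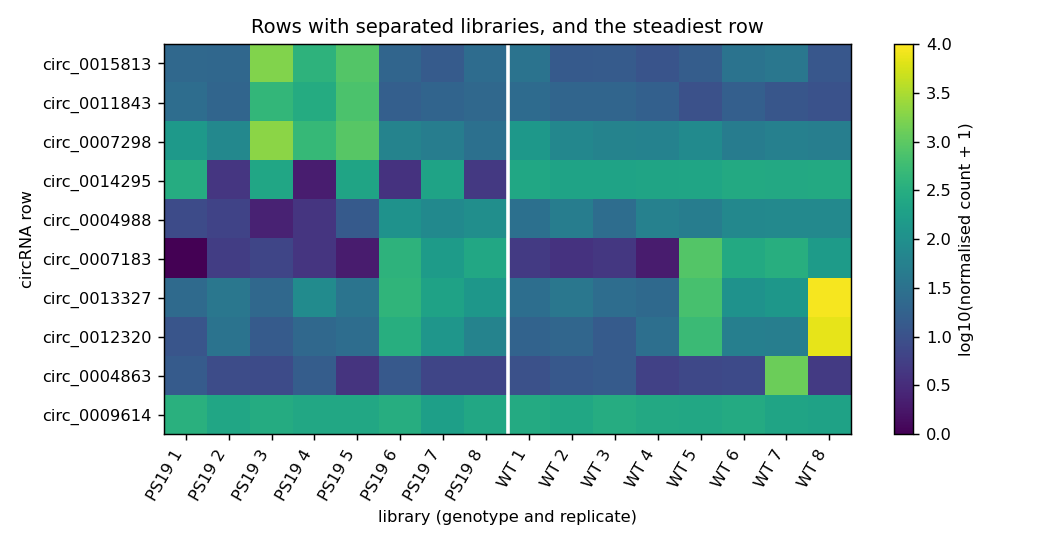
Colour gives log10(normalised count + 1) of 10 circRNA rows (vertical) in 16 libraries (horizontal), with a white line between PS19 and WT. The first 3 rows are high in PS19 3, 4 and 5, circ_0014295 is low in PS19 2, 4, 6 and 8, circ_0007183 is high in PS19 6 to 8 and WT 5 to 8, and the steadiest row, circ_0009614, is even.

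The spread between libraries was well above counting error. The median coefficient of variation (CV) of a row was 42.8% over the PS19 libraries and 41.0% over the WT libraries, beside 11.4% from the counting of reads alone. A value rested on 0 to 9384 reads. Of the 448 rows, 410 had a CV over 2 times that of counting and 0 lay below it. The figure for counting covers counting error only, since the reads carry no molecular identifiers.

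In 42 rows of 28 families the highest library was at least 4 times the median of the 16. This library was PS19 5 for 9 rows, WT 8 for 7, PS19 3 for 6 and WT 6 for 5. The steadiest rows were circ_0009614 and circ_0010868, both with a CV of 15.8%. circ_0009614 was 262 ± 49.3 normalised counts in PS19 and 251 ± 31.7 in WT (SD, n = 8 each), a log2 difference of 0.05 ± 0.18 (SE, limma, exact permutation p = 0.686). circ_0006627, circ_0002796 and circ_0007722 had CVs of 16.4%, 17.9% and 18% and differences of -0.01, 0.15 and 0.02.

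**Figure D5:**
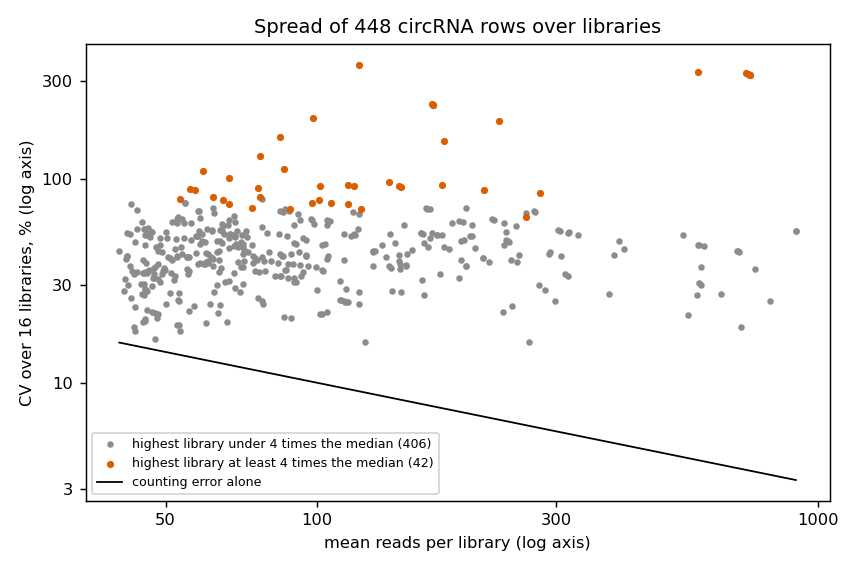
CV over 16 libraries (vertical, log axis) against mean reads per library (horizontal, log axis) for 448 circRNA rows, with the line giving the CV of counting alone. Rows whose highest library was at least 4 times the median (orange, 42) reach a CV above 300%, and no row lies below the line.

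The leaders of the 2 largest families showed differences that did not pass a test. circ_0000205 was 64.1 ± 34.9 normalised counts in PS19 and 74.1 ± 38.3 in WT (SD, n = 8 each), a log2 difference of -0.24 ± 0.36 (SE, limma, exact permutation p = 0.551). circ_0003310 was 124 ± 24.4 and 111 ± 32.8, a difference of 0.19 ± 0.22 (exact permutation p = 0.331). circ_0008327, a member through WT alone, was 38.8 ± 11 and 50.8 ± 32.9, and its difference of -0.24 ± 0.29 is a description.

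Pairs of rows moved together weakly, with a median pairwise r of 0.08, whereas the first and second principal components held 30.1% and 19.5% of the variance on the log2 scale. On the first component, libraries 1 to 4 of both genotypes lay between 0.04 and 0.37, libraries 5 to 8 of PS19 and 5 to 7 of WT between -0.43 and -0.02, and WT 8 at 0.02. The component thus split the libraries by number in both genotypes, and the labels do not say what the numbers share. The median deviation of the 448 rows from their own medians over the 16 libraries was -0.47 (log2) in PS19 7 and -0.28 in WT 7. It was 0.24 in WT 8 and 0.19 in WT 5, with the other 12 libraries between -0.12 and 0.13. The highest library was a PS19 library for 184 of the 448 rows.

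Set beside the neighbouring abundance ranges, the 448 rows held 2.35% of all circRNA counts, while 91 distinct rows with a mean of at least 1000 held 95.2%. Followers of other small RNAs were 20 of 448 (4.46%), beside 2 of 3587 rows with a mean of 5 to under 40 (0.0558%) and 29 of 91 rows above (31.9%). Called rows were 37 of 448 (8.26%), beside 111 of 3587 (3.09%) and 15 of 91 (16.5%). These shares were not tested against each other, because the rows of a family are not independent.

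Genotype and the code letter of the libraries overlapped, since F and A hold WT libraries alone. Within the letter G, 8 PS19 and 2 WT libraries could be set side by side without a test. All 29 lower rows had a negative and all 8 higher rows a positive difference there, but the rows had been called on the same PS19 libraries. The median difference of the 29 lower rows was -0.54 within the letter, beside -0.92 over all libraries, and WT 2 and WT 4 lay below the other WT libraries in 20 of the 29, with a median difference of -0.49 over all 29. Over all 448 rows the median was -0.10 both within the letter and over all libraries, and WT 2 and WT 4 lay below the other WT libraries in 203 rows, with a median difference of 0.06. With the letter as a term in limma, the genotype difference of a row is again that of PS19 against WT 2 and WT 4 alone. It thus rests on 2 WT libraries. In that fit 2 rows passed at an unadjusted p under 0.05 (0.446%), beside 2.06% of all features. These were circ_0007688 at -1.14 ± 0.50 and circ_0003448 at -1.42 ± 0.64 (log2, SE). No other row named here passed in that fit. The differences of circ_0009998, circ_0009997 and circ_0009950 were near 0 there, at -0.07, -0.06 and -0.08, and those of circ_0005019 and circ_0010369 were smaller, at -0.72 and -0.47. Those of circ_0014295 at -2.89, circ_0008687 at -0.98, circ_0004988 at -1.66, circ_0015813 at 2.76 and circ_0007298 at 1.43 stayed about as large as, or larger than, without the letter. Of the other rows named as higher in PS19, circ_0007944 at 0.26, circ_0001604 at 0.28, circ_0011843 at 1.84, circ_0010871 at 0.44 and circ_0012613 at 0.41 had smaller differences there. That of circ_0004465 was larger, at 0.43.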

How the data were processed

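Small RNA of frozen prefrontal cortex was sequenced by the authors from 16 mice, 8 PS19 and 8 WT, with genotype and replicate number taken from the sample titles. Per the labels and methods of the study, reads were aligned with STAR 2.5.3a inside COMPSRA 1.0.3, which assigns them to annotated circRNAs, miRNAs, snoRNAs, snRNAs and tRNAs, and genotypes were compared with DESeq2 1.42.1. The labels list the build mm10. The deposited values are a normalized signal, since the authors had divided each read count by the size factor of its library. Within 0.01, 100% of the values of each library were whole multiples of its smallest step, which gave back the reads, although in WT 4 and WT 6 the step is so near 1 that the evidence is weaker. Totals over all listed features were 13187096 to 23058568 reads, in which a read listed under several features counts in each. The same deposited table holds the authors' log2 fold changes with their errors, the Wald score, p-values and adjusted p-values, which were not used. 0 columns of values per library were left out.

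Values were analysed as log2(value + 1) over features with a mean of at least 5, by limma 3.58.1 (lmFit, eBayes with trend, genotype alone, R 4.3.3), with Benjamini-Hochberg adjustment over 6024 features. Fold changes on this scale understate those of low rows. For single rows an exact permutation test, two-sided, ran over all 12870 assignments. edgeR 4.0.16 and DESeq2 1.42.0 on the recovered reads were alternatives. On simulated counts for PS19 against WT over 6024 features with 200 changed, limma recovered 104 at an adjusted p under 0.05 with 7 false calls, 80% where the log2 change was 2 and 24% where it was 1. That the same mouse numbers pair genotypes was checked by correlating deviations.

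Named are the 8 families lower and the 8 higher with the smallest p, the row the study's text names, the 5 with the largest ratio of highest library to median, the 5 of smallest CV, the leaders of the 3 largest families, the 3 followers of highest mean per class and the rows at the limits. Rows named outside these rules, such as circ_0010180, circ_0003448 and the relatives of a named row, were picked with their values in view. The rows and lists were chosen with earlier results of these data known. Lengths, positions and host genes of the circRNAs were not analysed here, so levels were not compared between rows per length. Classes were read from names or from GENCODE M21 biotypes.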

Additional observations from a re-analysis of the deposited data

Results flagged for a closer look

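Of 78 values of a genotype group examined among the named rows, 11 held a library whose gap to its nearest neighbour passed Dixon's 95% limit for 8 libraries. Chance gives about 1 in 20, but 7 of the 11 lie in the 5 rows that were named for the largest ratio of their highest library to their median, so the number is set in part by that choice and is not compared with chance. The remaining 4 lie in other named rows. PS19 6 was that library in 3, and WT 8 and PS19 3 in 2 each.

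In PS19, circ_0015813 stood at 1765 in PS19 3 beside 838 in the next library, and circ_0007298 at 2024 in PS19 3 beside 915. In WT, circ_0007298 stood at 133.3 in WT 1 beside 80.2. circ_0005019 stood at 182.8 in PS19 8 beside 68.2, and this library lies above the WT median of a row that was lower in PS19.

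circ_0012320 stood at 322.6 in PS19 6 beside 126.7, and at 7159 in WT 8 beside 527.6. circ_0013327, which moves with it, stood at 415.6 in PS19 6 beside 199.9, and at 8756 in WT 8 beside 691.5. circ_0004863 stood at 1283 in WT 7 beside 12.8, circ_0007183 at 844.8 in WT 5 beside 326.0, and circ_0011476, just above the lower limit of abundance, at 77.8 in PS19 6 beside 38.1.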

How the results depend on the processing

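No setting turned the direction of any of the 17 named rows followed through all of them, and the median log2 difference of the rows stayed below 0 in all 30 alternatives, from -0.17 to -0.03. The number of rows with an adjusted p under 0.05 was 0 in every limma and edgeR setting and 5 with DESeq2. The number at an unadjusted p under 0.05 was 37 (8.26%), beside 4.0% of all features. With the code letter as a term (an alternative chosen after seeing the data) it was 2, beside 2.06% of all features. With near-identical rows counted once it was 23 of 320. When each library was left out in turn it was 22 to 57. The extremes were WT 5 and WT 8 at 22, beside 3.30% and 2.84% of all features, and WT 2 at 57, beside 4.98%. Without PS19 3, 4 or 5 the higher calls fell from 8 to 1, 2 and 2. Calls in either direction were then 3.60%, 3.34% and 3.80% of all features. The replicate block gave 61 calls (13.6%), beside 6.96% of all features, and no adjusted call. Under it circ_0007944, circ_0012613 and circ_0001604 also passed, with unadjusted p of 0.0136, 0.0306 and 0.0441. Same-numbered libraries correlated between 0.04 and 0.46, over 0.1 in 6 of 8 pairs and not in the other 2, and 2 of 8 PS19 libraries correlated best with their own number, so the numbers were not taken to pair the libraries. Followers numbered 46 at r of at least 0.95 instead of 20, and 23 with any ratio of means. Why the counts moved was not tested, except that the near-identical setting has fewer rows and the leave-one-out settings fewer libraries. The fit with the code letter likewise sets PS19 against WT 2 and WT 4 alone. Depth limits the rows of lowest mean most, although counting alone gave a median CV of 11.4%, under the spread between mice.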
